A study of Mus musculus with 25 samples.

Results

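The 37 genes described here mark macrophages and other leukocytes of the mouse embryo, together with Csf1 and Il34, the ligands of the macrophage receptor Csf1r. They were chosen by symbol, as the rows of a table of 35880 genes whose Ensembl identifier belongs to a listed macrophage or pan-leukocyte gene or to either ligand (the rule itself uses no measured value, but the list was drawn up with earlier results of these data known). All 37 were found, and all 37 were among the 17657 genes that passed the filter on low counts and were tested.

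RNA-Seq was done on mesenchyme, the loose embryonic tissue that surrounds an epithelial organ, dissected from wild-type C57Bl/6JOlaHsd embryos at E16.5 or E13.5 (embryonic days). Of the 5 tissues, with 5 samples each, FP was the fat pad precursor at E16.5, E16.5 MM was the mammary mesenchyme that surrounds the sprout, and E13.5 MM was the same tissue around the earlier bud. VM came from ventral skin and SM from the salivary gland, both at E13.5. A sample pooled tissue of 2 to 3 littermates and 3 litters gave the 5 samples of each tissue, so that p-values measure the spread between pools, some of which share a litter. The E16.5 samples are labelled female and no sex is given at E13.5, so stage and sex cannot be told apart where E16.5 is set against E13.5.

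Macrophages settle in most tissues of the mouse embryo, first from the yolk sac and later from the fetal liver. Their survival depends on Csf1r, a receptor tyrosine kinase that binds Csf1, made by many stromal cells, and Il34, best known from epidermis and brain. The transcription factor PU.1, encoded by Spi1, drives the myeloid programme by binding purine-rich DNA around the core GGAA.

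The stretches before the start of 4 members are shown because Mrc1, F13a1 and Lyz2 are among the members whose values the results turn on, and C1qb stands for the C1q cluster. Each is the 250 bases before a RefSeq start, written 5′ to 3′ along the gene on build GRCm38.p6. Capitals mark GAGGAA, a form of the PU.1 letters, or TTCCTC, the same letters on the other strand. The stretch of Mrc1 lies at chr2:14229164-14229413 on the plus strand. On the minus strand lie those of F13a1 at chr13:37050245-37050494, C1qb at chr4:136886201-136886450 and Lyz2 at chr10:117282273-117282522.
Mrc1: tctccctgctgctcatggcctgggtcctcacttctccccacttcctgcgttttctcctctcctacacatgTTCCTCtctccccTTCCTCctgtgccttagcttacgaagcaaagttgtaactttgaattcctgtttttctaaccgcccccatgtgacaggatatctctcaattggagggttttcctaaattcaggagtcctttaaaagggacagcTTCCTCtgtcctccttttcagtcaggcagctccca
F13a1: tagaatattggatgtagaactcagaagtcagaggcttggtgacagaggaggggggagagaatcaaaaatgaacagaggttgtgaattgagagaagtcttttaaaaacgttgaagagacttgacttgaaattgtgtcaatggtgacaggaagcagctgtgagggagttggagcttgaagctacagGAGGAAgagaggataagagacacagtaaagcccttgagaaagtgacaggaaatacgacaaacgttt
C1qb: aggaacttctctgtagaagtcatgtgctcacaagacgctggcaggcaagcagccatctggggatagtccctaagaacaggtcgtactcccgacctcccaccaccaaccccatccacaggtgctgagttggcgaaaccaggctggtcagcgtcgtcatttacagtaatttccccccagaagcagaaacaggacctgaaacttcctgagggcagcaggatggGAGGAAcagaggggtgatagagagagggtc
Lyz2: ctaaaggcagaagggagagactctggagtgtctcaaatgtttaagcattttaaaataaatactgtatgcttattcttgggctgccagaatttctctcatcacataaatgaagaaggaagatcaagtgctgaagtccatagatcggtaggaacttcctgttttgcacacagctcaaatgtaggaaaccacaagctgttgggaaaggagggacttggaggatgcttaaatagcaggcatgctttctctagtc
The stretch of Mrc1 held the letters 3 times and those of F13a1 and C1qb held them 1 time each, while they did not occur in that of Lyz2. The Lyz2 stretch does hold the shorter core GGAA, which was neither marked nor counted. F13a1 also has another RefSeq start, not printed. In its window (chr13:37049164-37049463) the letters stood 1 time, after the start and not before it. RefSeq windows, which run from 250 bases before to 50 after a start, were matched by symbol for 29 of the 37 members. GAGGAA or TTCCTC stood in a window of 19 of these 29 members (65.5%), and of 31.3% of all 27025 genes with a window. The longer form GAGGAAG or CTTCCTC, which contains the shorter one, stood in a window of 11 of the 29 (37.9%), and of 15.4% of all genes. A match of letters describes the sequence only, and binding of PU.1 was not measured.

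The libraries held 20678150 to 34448304 counts (median 26370369). A normalized count below is a count scaled by the library's TMM factor to the mean library of 26505080 counts, and summed levels of gene lists are in counts per 1000000 library counts (CPM). The members together reached 1695 to 2026 CPM in FP, 1550 to 1852 in E16.5 MM, 782 to 907 in MM at E13.5, 716 to 843 in VM and 222 to 276 in SM. The libraries were checked for mesenchyme with 10 of its markers, which summed to 13147 to 45732 CPM over the 25 libraries. These markers summed to 21794 to 26038 CPM in FP and 40557 to 45732 in E16.5 MM. The 8 epithelial markers summed to 3.05 to 99.4 CPM. All 5 tissues are mesenchyme, so these lists do not check which of the 5 a sample came from. Some libraries stood apart in other cell types. Skeletal muscle genes summed to 974 CPM in replicate 5 of FP, where the tissue's median was 5986 and that of E16.5 MM was 553. In the same library mast cell genes summed to 3932 CPM, where the tissue's median was 1986. Neutrophil genes reached 215 CPM in replicate 1 of FP and 48.6 and 44.1 CPM in replicates 2 and 5 of SM. Genes of peripheral ganglion neurons summed to 353 to 442 CPM in SM and to at most 31.8 CPM in the other tissues. In whole tissue, fewer cells of a type and less RNA per cell cannot be told apart.

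Most members shared a step between the stages and a gap between the organs. A gene was called where edgeR's quasi-likelihood test gave an adjusted p under 0.05 (Benjamini-Hochberg over the 17657 genes), the log2 fold change was at least 0.58 in size and the mean exceeded 50 normalized counts in the higher tissue. In E16.5 MM against E13.5 MM, 30 of the 37 members were higher and 0 were lower, where 12.6% of all genes tested were higher and 7.16% were lower. The 5 values of each tissue did not overlap for 31 members, all higher, as for 16.8% of all genes. The members' median log2 fold change was 1.04, with 0.01 over all genes. Against SM, 34 members were higher in FP, 35 in E16.5 MM and 29 in MM at E13.5, and 0 were lower, where 20.2%, 18.5% and 14.5% of all genes were higher and 19.3%, 16.6% and 15.6% lower. Values lay higher without overlap for 35, 36 and 30 members, where 25.1%, 24.4% and 22% of all genes did. Their medians were 2.46, 2.50 and 1.62 on the log2 scale. These last comparisons share the SM libraries, and those of the E16.5 tissues differ from SM in both organ and stage. Of the 37 members, 36 had their lowest mean in SM, and the exception was Mpeg1, lowest in E13.5 MM.

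Between neighbouring tissues of the same stage, 0 of 37 members were called. In FP against E16.5 MM, 14.1% of all genes were called in either direction and 22.5% had no overlap (3 members: Mrc1, Folr2 and Ctss), and the members' log2 fold changes ran from -0.46 to 0.75 with a median of -0.02. At an unadjusted p under 0.05, edgeR gave 5 members higher and 2 lower there, and DESeq2, which also called 0, gave 4 and 2. In E13.5 MM against VM, 6.45% of all genes were called and 14.3% had no overlap (0 members), and the members ran from -0.46 to 0.89 with a median of 0.03. Unadjusted, edgeR gave 4 members higher and 1 lower, and DESeq2, with 0 called, gave 5 and 1. The 95% interval of the log2 fold change lay wholly within 0.58 of 0 for 28 of 37 members between the E16.5 tissues. Between the E13.5 tissues it did so for 26 of 37. For the remaining members a change past the fold threshold was not excluded. FP also differed from E16.5 MM in markers of other cell types. Of the skeletal muscle genes, 12 of 12 were called higher in FP, and of the mesenchyme genes 7 of 10 were lower and 0 higher. The part of tissue composition in the members' values was not tested.

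**Figure D1:**
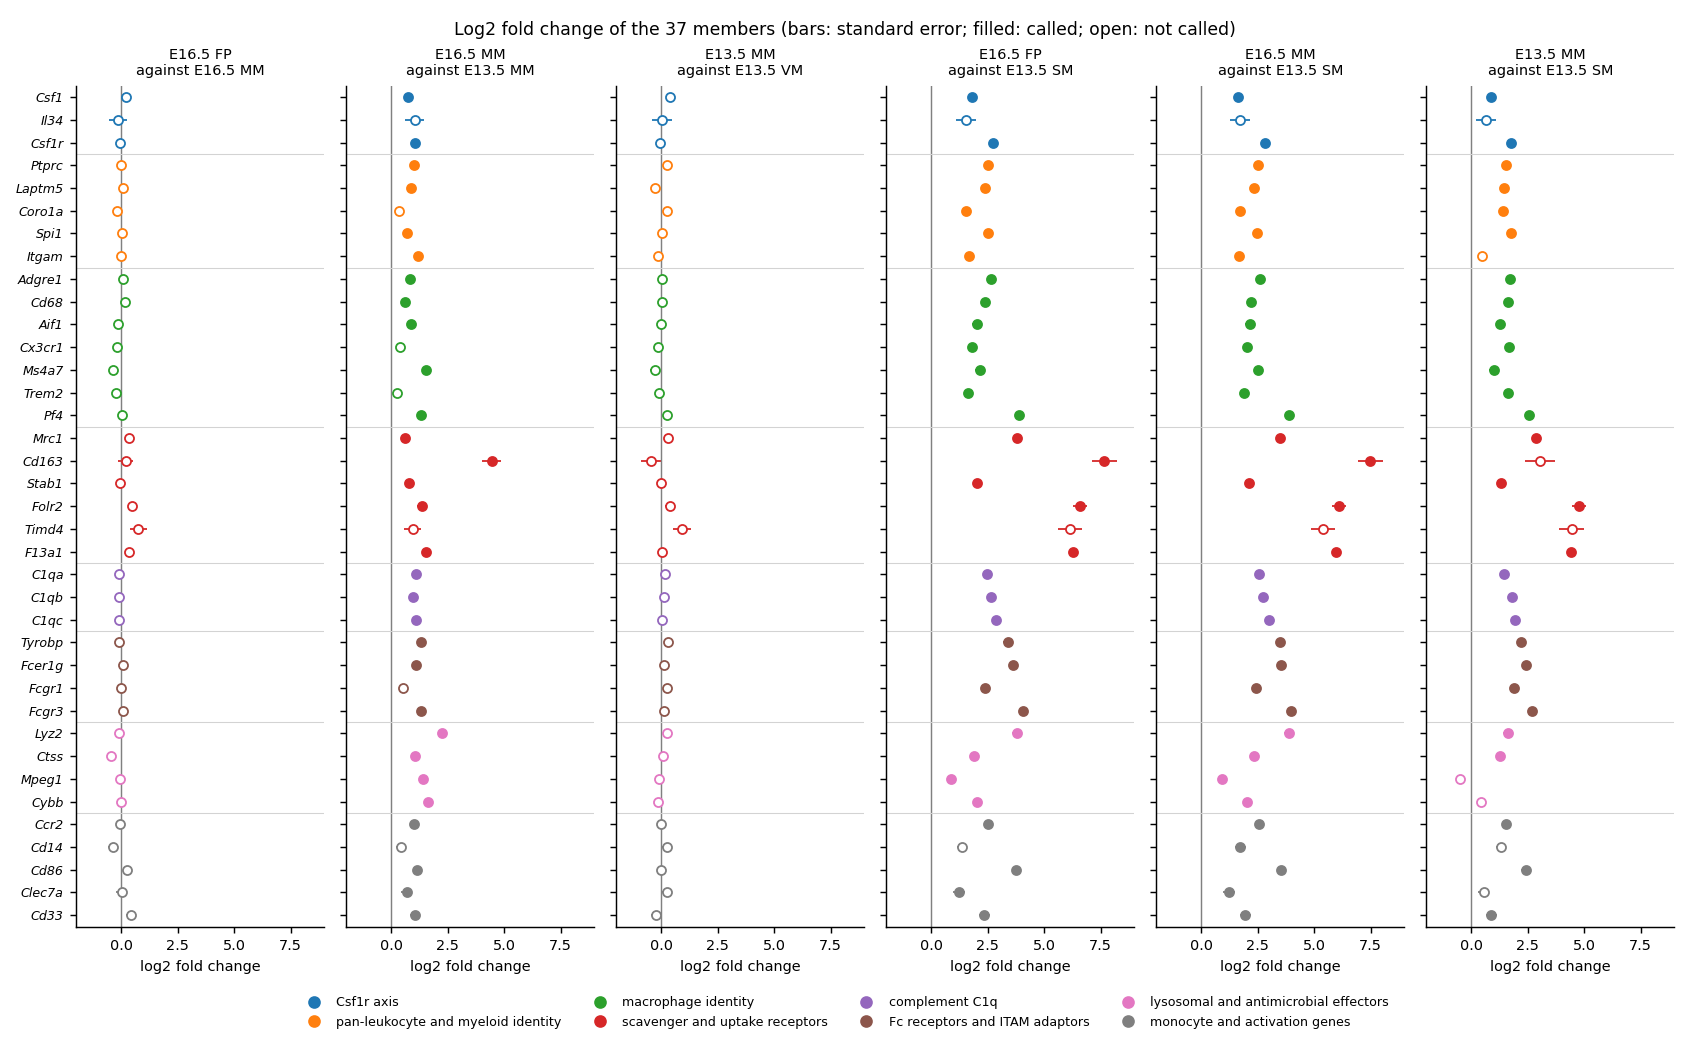
Log2 fold change of each of the 37 members (rows, grouped by role) in the 6 comparisons (panels), with the standard error as bars and the called members marked. Called members lie to the right of 0 in E16.5 MM against E13.5 MM (30 of 37) and in the 3 comparisons with SM (34, 35 and 29 of 37), and the panels of FP against E16.5 MM and of E13.5 MM against VM hold 0 called members.

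Of the 2 ligands, Csf1 differed between stages and organs, while Il34 was near the limit of detection. Csf1 (chr3:107741048-107760469, minus strand, mm10) had 914, 1161, 1125, 911 and 1130 normalized counts in FP and 927, 893, 950, 982 and 828 in E16.5 MM. Its values were 553, 532, 603, 564 and 477 in E13.5 MM, 448, 505, 387, 406 and 336 in VM, and 313, 280, 299, 310 and 279 in SM. All E16.5 values lay above all E13.5 values and those of SM lay below all others, while FP overlapped E16.5 MM and E13.5 MM overlapped VM. Csf1 was 1.68-fold higher in MM at E16.5 than at E13.5 (log2 fold change 0.75 ± 0.0947 SE, adjusted p = 5.08e-07, edgeR). Against SM it was 3.54-fold higher in FP, 3.09-fold in E16.5 MM and 1.84-fold in MM at E13.5 (adjusted p = 1.76e-14, 1.80e-13 and 1.82e-08, edgeR). Its log2 difference of 0.39 ± 0.0952 (SE) between E13.5 MM and VM had an adjusted p of 0.00462 (edgeR) but was under the fold threshold.

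Il34 (chr8:110741829-110805924, minus strand, mm10) had 17.8, 16.8, 17.4, 10.4 and 21.1 normalized counts in FP and 13.7, 15.6, 34.8, 11.5 and 17.1 in E16.5 MM. The E13.5 values were 6.78, 8.6, 13.6, 9.39 and 6.18 in E13.5 MM, 6.45, 7.26, 12.5, 14.9 and 2.81 in VM, and 8.96, 7.66, 1.92, 3.59 and 5.96 in SM. Both E16.5 tissues lay above SM without overlap, E16.5 MM overlapped E13.5 MM, and replicate 3 of E16.5 MM stood above the other 4. The gene had 284 counts over the 25 libraries, missed the count threshold and was not called in any of the 6 comparisons. Its exons overlap those of 2 other genes, so part of its small count is uncertain.

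Per kilobase of exon, Csf1 and Il34 averaged 198 and 8.53 normalized counts in FP, 173 and 9.47 in E16.5 MM, against 103 and 4.55 in MM at E13.5. In VM they averaged 78.8 and 4.49, and in SM 56.1 and 2.87. Csf1 was thus the more abundant ligand transcript in all 5 tissues. The log2 ratio of Il34 to Csf1 within a library differed by -0.26 to 0.22 across the 6 comparisons, and exact permutation tests gave adjusted p from 0.697 to 0.913. With SDs of up to 0.83 within a tissue, a shift of the ratio by this much was not detectable.

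Csf1r, the receptor of both ligands, fell into 3 levels. Its normalized counts were 2734, 2805, 2615, 2672 and 3021 in FP and 3228, 2843, 2823, 3098 and 2535 in E16.5 MM. At E13.5 they were 1536, 1493, 1442, 1339 and 1256 in E13.5 MM, 1496, 1660, 1436, 1552 and 1319 in VM, and 447, 366, 419, 439 and 411 in SM. The E16.5 tissues overlapped each other, E13.5 MM overlapped VM, and the levels did not overlap. Csf1r was 2.06-fold higher in MM at E16.5 than at E13.5 (1.04 ± 0.0751 SE, adjusted p = 3.81e-11, edgeR). Against SM it was 6.65-fold higher in FP, 6.97-fold in E16.5 MM and 3.39-fold in MM at E13.5 (adjusted p = 2.02e-19, 1.90e-19 and 7.96e-16, edgeR). Csf1r shares exon bases with Hmgxb3, and whether counting used strand was not stated.

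**Figure D2:**
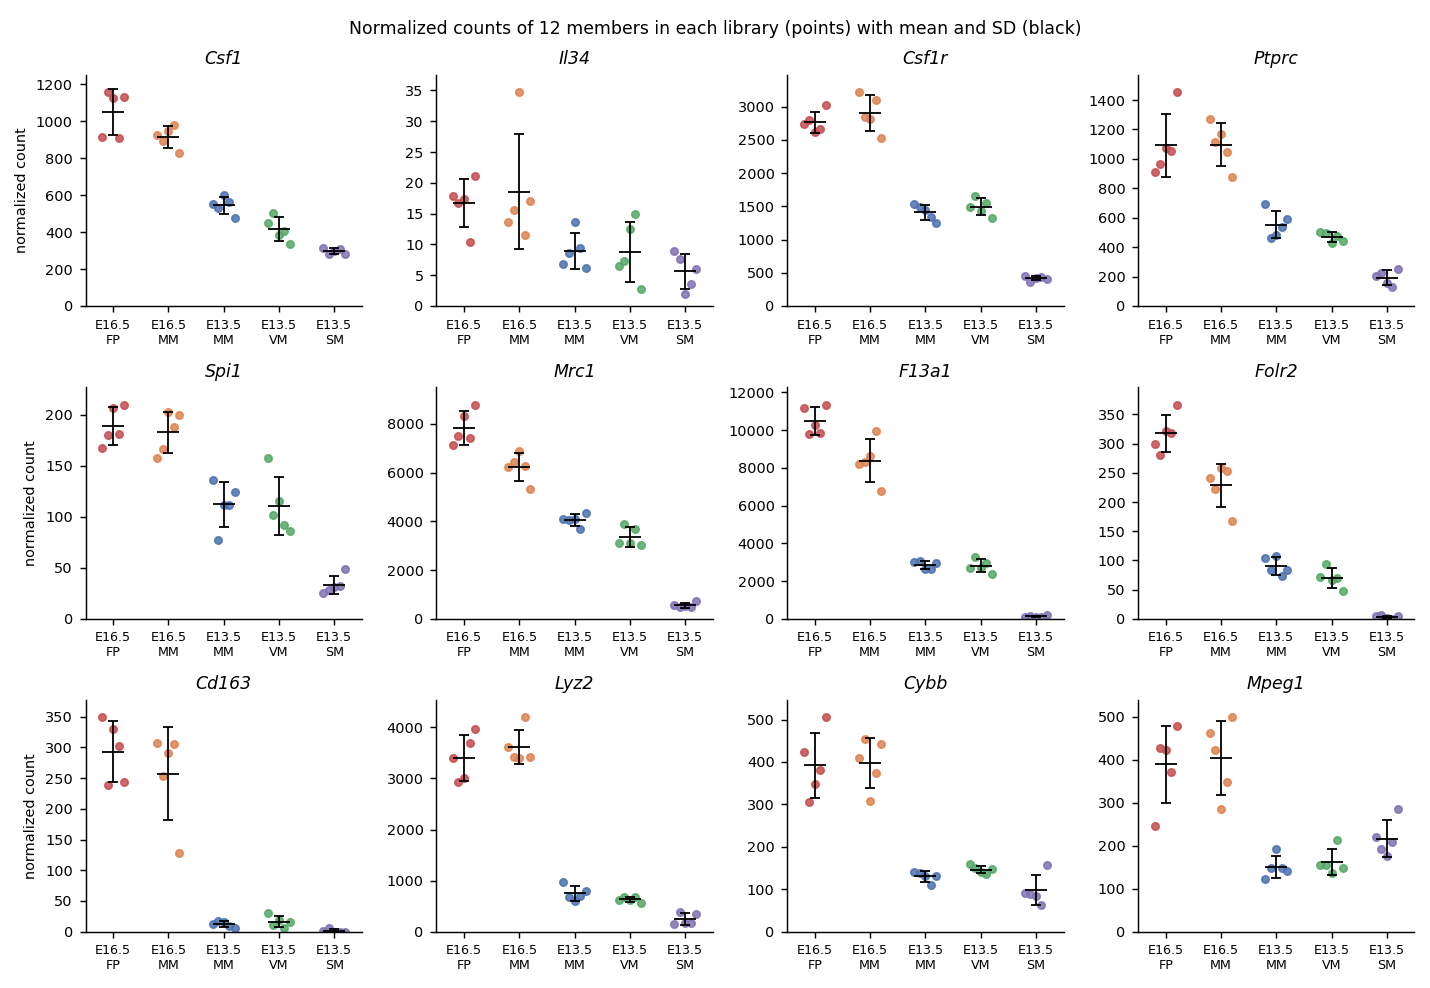
Normalized counts (vertical axes) of selected members in the 25 libraries (points), by tissue, with the mean and SD of 5 libraries. SM holds the lowest mean of each gene shown except Mpeg1, which averaged 150 in E13.5 MM and 216 in SM.

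The 5 pan-leukocyte and myeloid identity genes were Ptprc (the leukocyte phosphatase CD45), Laptm5 (a lysosomal membrane protein of blood cells), Coro1a (an actin-binding protein of leukocytes), Spi1 and Itgam (the integrin CD11b). In E16.5 MM against E13.5 MM, 4 of the 5 were higher (median 0.87), with Coro1a at 0.35 not called. Ptprc had 911, 968, 1077, 1052 and 1457 normalized counts in FP and 1272, 1114, 1166, 1046 and 878 in E16.5 MM. It had 694, 463, 480, 534 and 593 in E13.5 MM, 506, 493, 431, 476 and 442 in VM, and 203, 224, 154, 131 and 253 in SM. The same 3 levels as for Csf1r did not overlap. Ptprc was 1.98-fold higher in MM at E16.5 than at E13.5 (0.99 ± 0.149 SE, adjusted p = 6.58e-06, edgeR).

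Spi1, the gene of PU.1, had 167, 180, 207, 181 and 210 normalized counts in FP and 158, 166, 203, 188 and 200 in E16.5 MM. Lower values, of 136, 77.4, 112, 112 and 124 in E13.5 MM, 158, 102, 115, 91.9 and 86.3 in VM, and 25.1, 28.7, 30.8, 32.4 and 48.7 in SM, were found at E13.5. E16.5 MM lay above E13.5 MM, and both lay above SM, without overlap. Spi1 was 1.63-fold higher in MM at E16.5 than at E13.5 and 3.38-fold higher in E13.5 MM than in SM (adjusted p = 0.00164 and 1.24e-08, edgeR). Against SM all 5 genes of the group were higher in FP (median 2.39) and in E16.5 MM (2.33), and 4 were higher in MM at E13.5 (1.46). The remaining gene, Itgam, was at 0.49 ± 0.163 (SE) in E13.5 MM against SM, and without replicate 2 of SM it was called at 0.66 (adjusted p = 0.000613, edgeR).

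The 7 macrophage identity genes were Adgre1 (the antigen F4/80), Cd68 (a lysosomal glycoprotein), Aif1 (the actin-binding protein Iba1), Cx3cr1 (the receptor of fractalkine), Ms4a7, Trem2 (a lipid-sensing receptor) and Pf4 (the chemokine CXCL4). All 7 were higher than in SM in FP (median 2.15), E16.5 MM (2.21) and MM at E13.5 (1.64). In E16.5 MM against E13.5 MM, 5 of 7 were higher, led by Ms4a7 at 1.54 and Pf4 at 1.31. Trem2, at 0.25 ± 0.184 (SE), and Cx3cr1, at 0.36 ± 0.0929, were not called, although the Cx3cr1 values of the 2 tissues did not overlap. Cd68 was called at 0.58, on the fold threshold, and lost the call without any 1 of 4 libraries (0.54 to 0.57 without replicate 1 or 5 of E16.5 MM or replicate 2 or 4 of E13.5 MM).

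Pf4 is also made by megakaryocytes, so it was set beside 9 other megakaryocyte and platelet genes. It averaged 1089 ± 90.4 normalized counts in FP, 1078 ± 181 in E16.5 MM, 434 ± 39.0 in MM at E13.5, 363 ± 50 in VM and 73.3 ± 12.6 in SM (SD, n = 5). The megakaryocyte genes summed to 57.3 to 86.3 CPM in FP, 54.0 to 64.2 in E16.5 MM, 28.3 to 37.4 in MM at E13.5, 27.4 to 43.3 in VM and 40.2 to 49.1 in SM. The higher sum of MM at the later stage was not shared by the whole list. From E13.5 to E16.5 the MM mean of Itgb3 rose from 521 to 1303 normalized counts and that of Itga2b from 131 to 165. Over the same step Ppbp fell from 85.4 to 31.4 and Gp9 from 20.1 to 9.32. Of the 8 genes tested between these stages, 1 was called higher and 1 lower, with a median log2 fold change of -0.03. Pf4 was 5.90-fold higher in E13.5 MM than in SM (adjusted p = 8.94e-15, edgeR). In the same comparison 1 of the 8 megakaryocyte genes tested was called, and the list had a median of 0.51. The gene called, the integrin Itgb3, was lower and held most of the summed level (521 normalized counts in MM at E13.5, against 851 in SM), while the means of the other 8 genes of the list were higher in E13.5 MM, Itga2b among them at 131, against 87.6 in SM. The part of megakaryocytes in the Pf4 values was not tested.

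The 6 scavenger and uptake genes showed the largest gaps to SM. They were Mrc1 (the mannose receptor CD206), Cd163 (the haemoglobin-haptoglobin receptor), Stab1 (a scavenger receptor shared with some endothelia), Folr2 (a folate receptor), Timd4 (a receptor of phosphatidylserine on dying cells) and F13a1 (the A subunit of clotting factor XIII, made by macrophages and monocytes). Of the 6, 5 were higher in FP than in SM (median 6.22), 5 in E16.5 MM (5.68) and 4 in MM at E13.5 (3.73).

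Mrc1 had 7140, 7517, 8321, 7405 and 8789 normalized counts in FP and 6245, 6433, 6884, 6270 and 5311 in E16.5 MM. The counts at E13.5 were 4086, 4068, 4079, 3689 and 4334 in E13.5 MM, 3124, 3881, 3097, 3686 and 3012 in VM, and 570, 483, 516, 475 and 743 in SM. FP lay above E16.5 MM, which lay above E13.5 MM, all without overlap, and only E13.5 MM and VM overlapped. Mrc1 was 1.54-fold higher in MM at E16.5 than at E13.5 (0.62 ± 0.101 SE, adjusted p = 1.73e-05, edgeR) and 7.27-fold higher in E13.5 MM than in SM (2.86 ± 0.109, adjusted p = 5.34e-17). Between FP and E16.5 MM its difference of 0.33 ± 0.101 had an adjusted p of 0.012 (edgeR) but was under the fold threshold.

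F13a1 had 11189, 9796, 10284, 9866 and 11360 normalized counts in FP and 8216, 8288, 8639, 9954 and 6773 in E16.5 MM. At E13.5 it had 3026, 3088, 2653, 2648 and 2966 in MM, 2699, 3284, 2699, 2976 and 2358 in VM, and 108, 161, 105, 111 and 187 in SM. The values of SM lay far below those of the other 4 tissues, and FP overlapped E16.5 MM. F13a1 was 78.3-fold higher in FP than in SM, 62.4-fold in E16.5 MM and 21.4-fold in MM at E13.5 (adjusted p = 1.99e-20, 3.95e-20 and 2.21e-18, edgeR). It was 2.91-fold higher in MM at E16.5 than at E13.5 (1.54 ± 0.124 SE, adjusted p = 2.45e-10, edgeR).

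Folr2 had 300, 281, 321, 319 and 367 normalized counts in FP and 241, 222, 259, 254 and 167 in E16.5 MM. It had 105, 83.1, 108, 72.8 and 83.8 in E13.5 MM, 72, 94.4, 65.9, 70 and 47.8 in VM, and 4.48, 5.74, 1.92, 0 and 3.97 in SM. SM was close to 0 and apart from the other tissues, and FP lay above E16.5 MM without overlap. Folr2 was 95.5-fold higher in FP than in SM, 68.7-fold in E16.5 MM and 27.2-fold in MM at E13.5 (adjusted p = 1.31e-15, 6.37e-15 and 1.18e-12, edgeR).

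Cd163 was the member with the largest step between the stages. It had 349, 239, 330, 303 and 244 normalized counts in FP and 308, 254, 291, 306 and 128 in E16.5 MM. At E13.5 it had 12.4, 17.2, 15.6, 8.61 and 5.30 in E13.5 MM, 30.1, 11.4, 19.6, 5.25 and 15.0 in VM, and 0.896, 5.74, 0, 0 and 0 in SM. All E16.5 values lay far above all E13.5 values. Cd163 was 21.8-fold higher in MM at E16.5 than at E13.5 (4.44 ± 0.423 SE, adjusted p = 6.49e-09, edgeR). Against SM, where it had 7 counts in all and 6 of them in replicate 2, it was called in FP (7.67 ± 0.554) and E16.5 MM (7.48 ± 0.554; adjusted p = 8.91e-12 and 1.75e-11, edgeR). These last 2 fold changes rest on few counts, and without replicates 2 and 5 of SM they came to 9.41 and 9.24.

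Timd4 was below the count threshold of 50 in all 5 tissues and was not called, but its mean in FP lay just under it, and without replicate 1 or 4 of FP it was called against SM at 6.27 and 6.26 (adjusted p = 3.43e-10 and 5.55e-10, edgeR). It averaged 48.4 ± 18.8 normalized counts in FP, 28.8 ± 14.6 in E16.5 MM, 14.9 ± 2.89 in MM at E13.5, 8.01 ± 3.54 in VM and 0.558 ± 0.510 in SM (SD, n = 5). The 5 libraries of SM held 3 counts in all. Its ratio to SM was 86.6 in FP (95% exact interval 29.2 to 423), 50 in E16.5 MM (16.7 to 246) and 26.1 in MM at E13.5 (8.61 to 129), and these intervals cover counting error only. Stab1, with the smallest change of the group against SM, was 4.12-fold higher in FP, 4.36-fold in E16.5 MM and 2.50-fold in MM at E13.5.

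The 3 genes of C1q, the first component of complement, lie side by side on chromosome 4 and are made by tissue macrophages. C1qa, C1qb and C1qc were all higher in MM at E16.5 than at E13.5, with log2 fold changes of 1.1, 0.94 and 1.09. Against SM all 3 were higher in FP (2.46, 2.64 and 2.88), E16.5 MM (2.55, 2.75 and 3.00) and E13.5 MM (1.44, 1.81 and 1.91). The 4 Fc receptor and adaptor genes, Tyrobp (the adaptor DAP12), Fcer1g (the common Fc receptor chain), Fcgr1 and Fcgr3 (receptors of IgG), were all higher than in SM in FP and in E16.5 MM (median 3.51 in both) and in MM at E13.5 (2.31). In E16.5 MM against E13.5 MM, 3 of the 4 were higher, and Fcgr1 was at 0.53 ± 0.151 (SE), under the fold threshold.

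The 4 lysosomal and antimicrobial genes were all higher in MM at E16.5 than at E13.5 (median 1.52), but they parted against SM. Lyz2, the lysozyme of myeloid cells, had 3396, 2920, 3012, 3697 and 3965 normalized counts in FP and 3618, 3427, 3391, 4194 and 3423 in E16.5 MM. It had 973, 683, 603, 703 and 798 in E13.5 MM, 620, 678, 624, 674 and 567 in VM, and 158, 389, 169, 174 and 345 in SM. Within SM, replicates 2 and 5, the libraries with the most neutrophil RNA, held the highest Lyz2 values. Lyz2 is also made by neutrophils, and their part in these values was not tested. It was 4.80-fold higher in MM at E16.5 than at E13.5 (2.26 ± 0.193 SE, adjusted p = 1.63e-09, edgeR) and 3.05-fold higher in E13.5 MM than in SM (1.61 ± 0.196, adjusted p = 1.94e-07).

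Cybb, the membrane subunit of the phagocyte oxidase, had 424, 306, 347, 380 and 505 normalized counts in FP and 409, 454, 309, 373 and 443 in E16.5 MM. At E13.5 it had 140, 138, 132, 109 and 132 in MM, 160, 149, 140, 136 and 147 in VM, and 92.3, 89.0, 84.6, 62.9 and 157 in SM. All E16.5 values lay above all E13.5 values, and replicate 5 of SM reached into the range of VM. Cybb was 3.06-fold higher in MM at E16.5 than at E13.5 (1.61 ± 0.172 SE, adjusted p = 3.22e-08, edgeR). Against SM it was at 0.42 ± 0.174 in E13.5 MM and not called, and without replicate 5 of SM it was called at 0.66 (adjusted p = 0.000401, edgeR).

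Mpeg1, which encodes the pore-forming perforin-2 of macrophages, was singled out after its values were seen, as the member whose lowest mean was not in SM. It had 245, 427, 423, 371 and 479 normalized counts in FP and 462, 423, 286, 348 and 498 in E16.5 MM. It had 122, 147, 192, 148 and 142 in E13.5 MM, 155, 156, 137, 213 and 147 in VM, and 219, 192, 175, 208 and 286 in SM. The ranges of E13.5 MM and SM overlapped. The log2 fold change of E13.5 MM against SM was -0.52 ± 0.178 (SE, adjusted p = 0.0138, edgeR), under the fold threshold, and it was called lower, at -0.62, without replicate 3 of E13.5 MM. Without replicates 2 and 5 of SM, a choice made after seeing the data, it was -0.40 and no longer passed the adjusted p threshold (0.086, edgeR). Replicate 2, at 192, lay below the SM median of 208, and replicate 5, at 286, was the highest. The part of neutrophils in the Mpeg1 values was not tested. Mpeg1 was 2.68-fold higher in MM at E16.5 than at E13.5 (adjusted p = 4.51e-07, edgeR). Ctss, the lysosomal protease cathepsin S, was the member of this group with a gap between the E16.5 tissues, at 577 to 912 normalized counts in FP and 919 to 1068 in E16.5 MM (-0.46 ± 0.128, adjusted p = 0.00625, edgeR), again under the fold threshold.

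The 5 monocyte and activation genes were Ccr2 (the chemokine receptor of monocytes), Cd14 (the co-receptor of lipopolysaccharide), Cd86 (a T cell costimulator), Clec7a (the glucan receptor Dectin-1) and Cd33 (a sialic acid receptor). In E16.5 MM against E13.5 MM 4 of 5 were higher, with Ccr2 at 1.01 and Cd86 at 1.12, and Cd14 was at 0.43 ± 0.215 (SE). Clec7a was called there at 0.68 (adjusted p = 0.0225, edgeR), a call lost without replicate 4 of E16.5 MM or replicate 2 or 5 of E13.5 MM (adjusted p = 0.0812, 0.0631 and 0.0503). Against SM, Cd86 was 13.4-fold higher in FP, 11.5-fold in E16.5 MM and 5.29-fold in MM at E13.5. Clec7a, at 0.54 ± 0.247, was not called in E13.5 MM against SM, and without replicate 5 of SM, whose 69.5 normalized counts stood above the 28.8 to 33.3 of the other 4, it was called at 0.84 (adjusted p = 0.0023, edgeR).

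Ratios within a library set a member against Csf1r of the same library. For 6 ratios in 6 comparisons, exact two-sided permutation tests of 5 against 5 libraries were adjusted over all 36, and the smallest unadjusted p they can give is 0.00794. The log2 ratio of Mrc1 to Csf1r averaged 1.5 ± 0.11 in FP, 1.1 ± 0.13 in E16.5 MM, 1.52 ± 0.15 in MM at E13.5, 1.17 ± 0.08 in VM and 0.40 ± 0.27 in SM (SD, n = 5). It differed in all 6 comparisons (adjusted p = 0.026 in each, exact permutation test), and with 1 library left out the largest adjusted p was 0.0519, in FP against E16.5 MM and in E16.5 MM against SM. It was higher in FP than in E16.5 MM (0.40) and in MM at E13.5 than in VM (0.35), lower in MM at E16.5 than at E13.5 (-0.42), and higher in FP (1.09), E16.5 MM (0.70) and E13.5 MM (1.12) than in SM. Set against Ptprc in place of Csf1r, the differences between the 4 tissues other than SM no longer passed the threshold (0.34, 0.05 and -0.37, adjusted p = 0.0571, 0.857 and 0.0952).

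The ratio of Cx3cr1 to Csf1r was also lower in MM at E16.5 than at E13.5 (-0.67, adjusted p = 0.026, exact permutation test). It stood at 38.5 counts per 100 Csf1r counts in E16.5 MM and 61.3 in MM at E13.5. Against SM the Cx3cr1 ratio was lower in FP (-0.93) and E16.5 MM (-0.79, adjusted p = 0.026 in both, exact permutation test). In E13.5 MM against SM it did not pass (-0.12, adjusted p = 0.476). Set against Ptprc, the difference of E16.5 MM from SM no longer passed (-0.52, adjusted p = 0.0779). Lyz2 relative to Csf1r was higher in MM at E16.5 than at E13.5 (1.24, adjusted p = 0.026, exact permutation test), at 125 counts per 100 Csf1r counts in E16.5 MM and 53.4 in MM at E13.5. Against SM the Lyz2 ratio was higher in FP (1.15) and E16.5 MM (1.17, adjusted p = 0.0476 and 0.026), and both lost the threshold in 5 of 10 settings that left out 1 library. The ratios of Adgre1 and Ccr2 to Csf1r passed the threshold in 0 of 6 comparisons each, with adjusted p from 0.163 to 0.913.

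Ratios of F13a1 and Folr2 to Csf1r were looked at after the values were seen and were not tested. F13a1 stood at 379 counts per 100 Csf1r counts in FP, 288 in E16.5 MM, 204 in MM at E13.5, 187 in VM and 32.8 in SM. Folr2 stood at 11.5, 7.85, 6.4, 4.65 and 0.8 in the same order of tissues. Both were thus lowest relative to Csf1r in SM. Of the 34 members other than the Csf1r axis, 32 changed within 2-fold of Csf1r in E16.5 MM against E13.5 MM, and Cd163 and Lyz2 lay above that range. In E13.5 MM against SM, 25 did, with Mrc1, Cd163, Folr2, Timd4 and F13a1 above the range and Itgam, Mpeg1, Cybb and Clec7a below it.

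**Figure D3:**
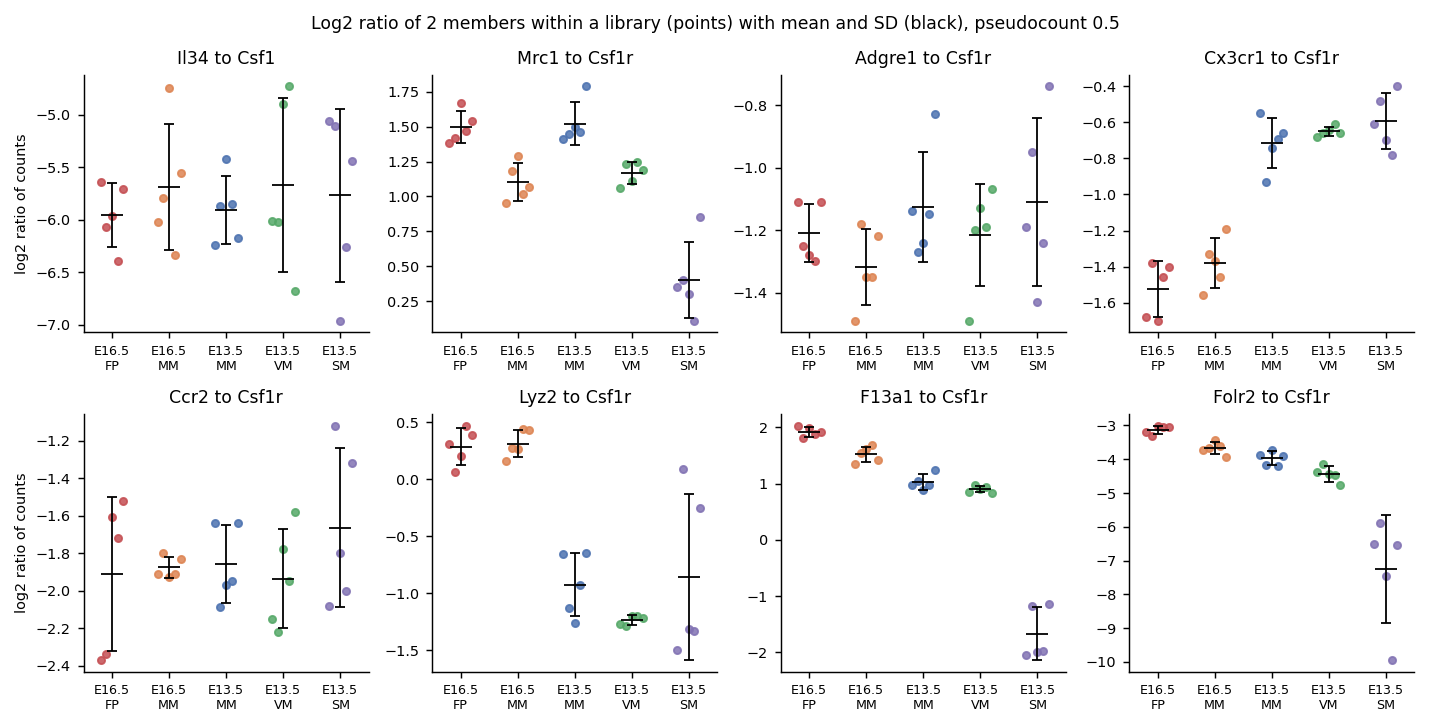
Log2 ratios within a library, by tissue, for the 25 libraries (points), with the mean and SD of 5 libraries. The ratio of Mrc1 to Csf1r is lowest in SM (0.40 ± 0.27), and the ratios of Cx3cr1 and Lyz2 to Csf1r part the E16.5 MM from the E13.5 MM libraries.

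Replicates differed among themselves in many members at a time. Of the 35 members other than the ligands, 24 were highest in replicate 5 within FP, and 19 were highest in replicate 5 within SM. Replicate 5 of FP had the lowest muscle sum of its tissue and also the highest mast cell sum, at 3932 CPM. In VM 18 were lowest in replicate 5. The part of tissue composition in these orders was not tested. Without replicates 1 and 5 of FP, a choice made after seeing the data, 0 members were called in FP against E16.5 MM and 35 against SM. Without replicates 2 and 5 of SM, 34 were called in FP, 35 in E16.5 MM and 32 in MM at E13.5.

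Markers of other blood cells moved with the members in part. Mast cell genes (10, with Kit, Cpa3 and Tpsb2 among them) summed to 1732 to 3932 CPM in FP, 1786 to 2430 in E16.5 MM, 215 to 306 in MM at E13.5, 173 to 226 in VM and 13.3 to 20.4 in SM. Tpsb2, a mast cell tryptase, and Fcer1a, the IgE-binding receptor chain, had 0 counts in SM. In E16.5 MM against E13.5 MM 8 of 10 were higher, with Mcpt4 at 6.87 and Tpsb2 at 6.49. Mast cells also express Ptprc, Laptm5 and Fcer1g, and their part in the changes of these members was not tested.

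Erythroid genes (10, globins among them) also had higher sums in MM at E16.5 than at E13.5 and in each of these tissues than in SM. They summed to 3719 to 7568 CPM in FP, 4490 to 6022 in E16.5 MM, 2897 to 3631 in MM at E13.5, 3056 to 6150 in VM and 1419 to 2164 in SM. Of the 10, 6 were higher and 1 lower in MM at E16.5 than at E13.5 (median 0.79), and 6 were higher and 0 lower in MM at E13.5 than in SM (median 1.15). The lower gene was Hbb-y, the embryonic globin, at -6.07. How far blood content moves with the members was not tested.

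Neutrophil genes (10) summed to 25.3 to 215 CPM in FP, 28.8 to 43.6 in E16.5 MM, up to 24.8 (median 14.8) in E13.5 MM, 11.2 to 21.5 in VM and 14.4 to 48.6 in SM. Lymphocyte genes (12) summed to 5.37 to 17.7 CPM over the 25 libraries. In E13.5 MM against SM the median log2 fold change of the 9 neutrophil genes tested was -4.59, opposite in sign to the members' 1.62, with 3 called lower and 1, Cxcr2, called higher. S100a8, a calcium-binding protein of neutrophils, averaged 5.55 normalized counts in MM at E13.5, against 151 in SM, whereas Cxcr2, a chemokine receptor, averaged 404 in MM at E13.5, against 240 in SM, and held most of the sum in MM. Endothelial genes (12), which include Lyve1, summed to 1105 to 1424 CPM in FP, 937 to 1153 in E16.5 MM, 728 to 903 in MM at E13.5, 678 to 761 in VM and 514 to 647 in SM. They had the same order as the members with smaller gaps, and their part in Stab1, which some endothelia express, was not tested.

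**Figure D4:**
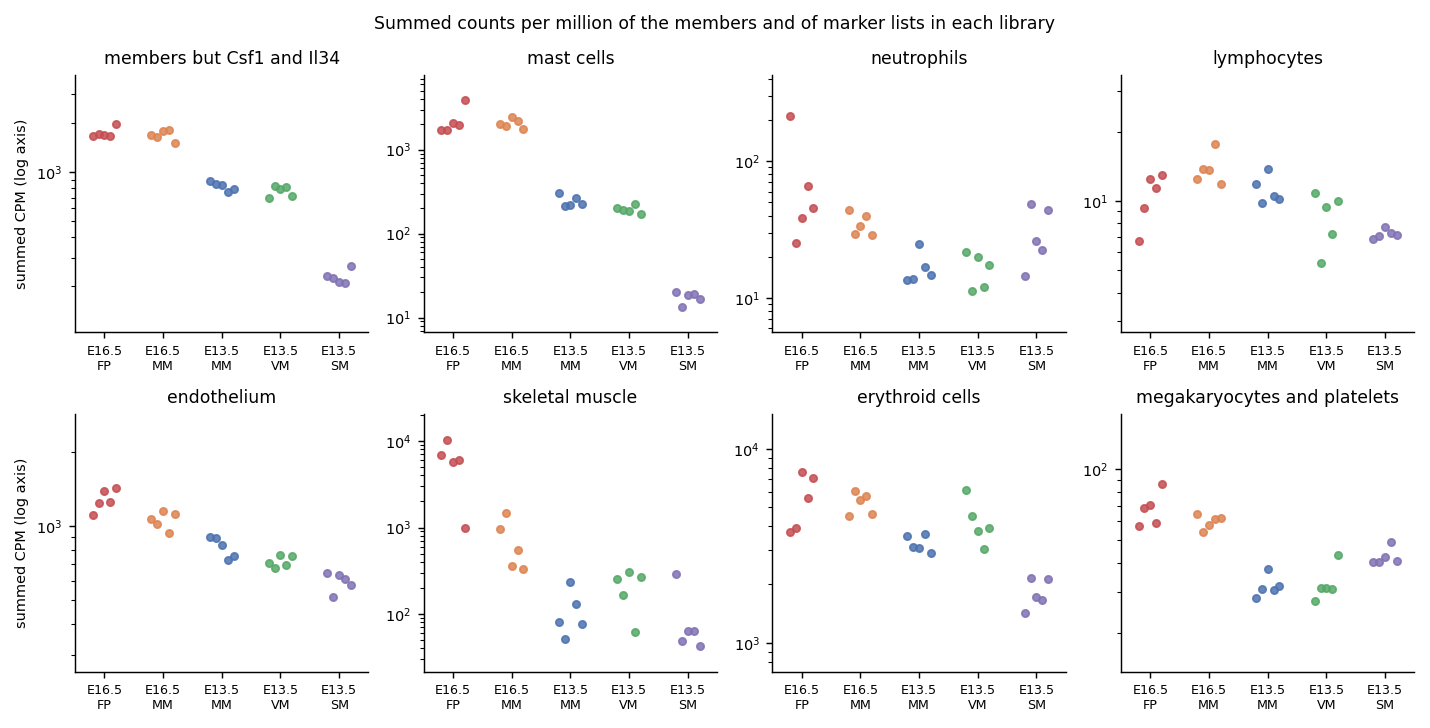
Summed CPM (log axes) of the 35 members other than the ligands and of marker lists of other cell types in the 25 libraries (points), by tissue. The members run from 1518 to 1983 CPM in the E16.5 tissues and from 209 to 265 CPM in SM, mast cell genes span 13.3 to 3932 CPM, and neutrophil and lymphocyte genes stay at or below 215 CPM.

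Of 35 other myeloid and leukocyte genes, 24 were higher and 1 lower in MM at E16.5 than at E13.5 (median 0.74), with Csf2rb, the common receptor chain of GM-CSF and IL-3, at 1.75. Against SM, 32 were higher and 2 lower in FP (median 2.53), 32 higher and 0 lower in E16.5 MM (2.31), and 30 higher and 1 lower in MM at E13.5 (1.66). In E13.5 MM against VM, 1 was higher (Nfam1, an ITAM receptor, at 1.30) and 3 were lower. Runx1 at -2.0 and Arhgdib at -0.59 were among them (adjusted p = 2.19e-09 and 0.00849, edgeR). Runx1, a transcription factor of blood cells that some mesenchyme also expresses, was also lower in FP than in E16.5 MM, at -1.71 (adjusted p = 1.31e-08, edgeR).

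Ligands and partners of member receptors differed too. Of Cx3cl1, Ccl2, Ccl7, Ccl12 and Apoe, the ligands of Cx3cr1, Ccr2 and Trem2, 3 were higher in MM at E16.5 than at E13.5, Ccl7 at 1.43, Ccl12 at 1.18 and Apoe at 0.78. Ccl2, which draws monocytes through Ccr2, averaged 98.9 normalized counts in FP, 154 in E16.5 MM, 108 in MM at E13.5, 73.0 in VM and 14.1 in SM. It was higher than in SM in FP (2.80), E16.5 MM (3.43) and E13.5 MM (2.92). Cx3cl1, the ligand of Cx3cr1, averaged 69.6 normalized counts in FP, 99.2 in E16.5 MM, 67.5 in MM at E13.5, 76.4 in VM and 95.5 in SM, and was not called in the 6 comparisons.

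Of 15 genes of apoptotic cell uptake, 11 were higher and 1 lower in MM at E16.5 than at E13.5, led by Nr1h3, a sterol-sensing nuclear receptor, at 2.34 and Cd36, a scavenger receptor also of adipocytes, at 1.68. Between FP and E16.5 MM, Cd36 (2.1) and Nr1h3 (1.47) were higher and Itgb5 (-1.14) and Lrp1 (-1.06) lower in FP. In E13.5 MM against SM, 5 were higher, Gas6 at 3.14 among them, and 6 lower, Mertk at -1.87 among them. In E13.5 MM and SM, Gas6 averaged 966 and 109 normalized counts, Mertk 555 and 2031, and Csf1r 1413 and 417. Which cells hold the RNA of the uptake genes was not tested. Gas6 is a ligand of the uptake receptor Mertk.

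Among 14 genes named from microglia and other resident macrophages, 4 were higher and 0 lower in MM at E16.5 than at E13.5, and 9 were higher and 1 lower in FP than in SM. Lyve1, a hyaluronan receptor of perivascular macrophages and lymphatic endothelium, averaged 2598 ± 330 normalized counts in FP, 1416 ± 475 in E16.5 MM, 794 ± 162 in MM at E13.5, 493 ± 100 in VM and 24.6 ± 24.9 in SM (SD, n = 5). It was higher in FP than in E16.5 MM (0.88) and in MM at E13.5 than in SM (5.03). Ccl24, a chemokine made by resident macrophages, averaged 228, 171, 83.8, 81.8 and 3.26 normalized counts in FP, E16.5 MM, E13.5 MM, VM and SM. In FP against E16.5 MM, 1 of the 14 genes was higher and 3 were lower. Sall1, a microglial transcription factor that mesenchyme also expresses, was lower in FP (-4.42), against the direction of Lyve1. Tmem119 averaged 562 normalized counts in FP, against 2131 in E16.5 MM, and Olfml3 averaged 2355, against 6867. Of the 10 mesenchyme markers, 7 were also lower in FP than in E16.5 MM and 0 were higher. Tmem119 averaged 2270 in E13.5 MM and 1827 in SM, where Csf1r averaged 1413 and 417. Which cells hold the RNA of Sall1, Tmem119 and Olfml3 was not tested.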

How the data were processed

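Libraries were made from total RNA of dissected mesenchyme (Ovation SoLo kit). The authors trimmed reads with Trimmomatic 0.39, removed ribosomal reads with SortMeRNA, checked quality with FastQC 0.11.8 and MultiQC 1.9 and quantified with Salmon 0.99.0 on mm10, per the labels and methods. They deposited estimated counts per gene as whole numbers. The annotation release and the use of strand are not given in the sources used here.

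Symbols and coordinates were taken from GENCODE M21 by Ensembl identifier. Rows with no symbol numbered 446 and held 0.103% of counts. The table held 25 columns, 1 per sample, and 0 per-sample columns were left unused. Exons of Il34, Csf1r, Coro1a, Itgam, Cx3cr1, Stab1, Folr2 and F13a1 overlap those of other genes, so their counts are uncertain in part. Counts were fitted with edgeR 4.0.16 (R 4.3.3; TMM, filterByExpr, robust quasi-likelihood) over 5 tissue means in all 25 libraries, with 20 residual degrees of freedom. The SE is the log2 fold change divided by the root of its F value. Ratios had 0.5 counts added. No 2 libraries were identical (highest correlation 0.9907). The fit was tested on simulated data. Alternatives were DESeq2 1.42.0 (test and size factors), no filter, only the tissues compared, other thresholds, a replicate block, other ratio settings and each library left out.

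The members and lists were chosen with earlier results of these data known. All 37 members are accounted for. Values per sample are given for Csf1, Il34, Csf1r, Ptprc, Spi1 and Mrc1 and for the 3 called members with the largest change per comparison and direction. Of other lists, up to 4 called members per comparison with the largest change, and markers at or near 0, are named. A gene of the other lists is counted but not reported by name here.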

Additional observations from a re-analysis of the deposited data

Results flagged for a closer look

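In 185 groups of 5 libraries (37 members by 5 tissues), 11 had a highest or lowest value whose gap to the next exceeded 0.71 of the range, Dixon's critical value for 5, and chance gives about 1 in 20. In FP, replicate 5 was high for Laptm5 (1230 normalized counts, others 784 to 885) and Fcgr3 (1819, others 1238 to 1392). In E16.5 MM, replicate 3 was high for Il34 (34.8, others 11.5 to 17.1) and replicate 4 for Lyz2 (4194, others 3391 to 3618). In E13.5 MM, replicate 4 was low for Cybb (109, others 132 to 140). In VM, replicate 1 was high for Itgam (135, others 104 to 109) and Ms4a7 (134, others 73.5 to 88.2), and replicate 4 for Mpeg1 (213, others 137 to 156). In SM, replicate 5 was high for Clec7a (69.5, others 28.8 to 33.3) and Cd33 (64.5, others 35.9 to 38.5), and replicate 2 for Cd163 (5.74, others 0 to 0.896).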

How the results depend on the processing

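The number of members called kept within 1.5 times its value in all settings except 1. With an adjusted p alone and no fold or count threshold, 1 member (Csf1, higher) passed in E13.5 MM against VM and 3 (Mrc1 and F13a1 higher, Ctss lower) in FP against E16.5 MM. With 1 library left out, the number called was 34 to 35 in FP, 35 to 35 in E16.5 MM and 29 to 31 in MM at E13.5 against SM, 29 to 31 in E16.5 MM against E13.5 MM, and 0 to 0 in FP against E16.5 MM and in MM at E13.5 against VM. The replicate numbers did not pair the samples (correlations of deviations from -0.247 to 0.289), and a replicate block gave 0 members called in E13.5 MM against VM, 30 in E16.5 MM against E13.5 MM, 0 in FP against E16.5 MM, and 34, 35 and 29 in FP, E16.5 MM and E13.5 MM against SM. For ratios, 5 pairs cannot give a p below 0.0625. No log2 fold change of a member that was called, and no ratio past the threshold, changed sign. Set against Ptprc, the ratio of Mrc1 moved to 0.05 in E13.5 MM against VM (adjusted p = 0.857), -0.37 in E16.5 MM against E13.5 MM (0.0952) and 0.34 in FP against E16.5 MM (0.0571), exact permutation tests, that of Cx3cr1 to -0.52 in E16.5 MM against SM (0.0779), and that of Cx3cr1 in E13.5 MM against VM passed at -0.36 (0.0317); the cause was not tested. With 1 library left out, the ratios to Csf1r ran from 0.24 to 0.39 for Lyz2 in E13.5 MM against VM, which passed without replicate 3 of E13.5 MM, from 0.99 to 1.39 and from 1.01 to 1.41 for Lyz2 in FP and E16.5 MM against SM, from 0.35 to 0.44 for Mrc1 in FP against E16.5 MM and from 0.62 to 0.81 for Mrc1 in E16.5 MM against SM, and the last 4 lost the threshold in 5, 5, 4 and 5 of 10 settings (fewer samples allow only larger p). Low counts limit Il34, Timd4, Cd14 and, in SM, Cd163 and Folr2.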
